A study of Homo sapiens with 4 samples.

Results

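Contact maps were described at the bins of 47 cell cycle genes. These genes encode cyclins, kinases, replication, mitosis and transcription factors that dividing cells use, and many of them are turned down in senescence. A gene was placed in the bin of about 200 kb that holds its start of transcription in hg19. The 47 genes fell in 46 of the 13547 autosomal bins, since CDC6 and TOP2A share 1 bin, and lay on 19 chromosomes. The maps come from Hi-C, in which fixed chromatin is cut with the enzyme HindIII, neighbouring ends are ligated and the joined ends are sequenced. The cells were IMR90, normal diploid human lung fibroblasts, carrying ER:HRAS G12V, an oncogenic RAS protein that works only once 4OHT is added. Growing cells (Grow) had no 4OHT, and cells given 100 nM 4OHT for 6 days entered oncogene-induced senescence (OIS). In Grow-shA1 and OIS-shA1 a retroviral hairpin against HMGA1, an abundant chromatin protein that prefers AT-rich DNA, was added. Each condition had 1 map. Both maps with shA1 were made from 2 pooled samples, whereas Grow and OIS were taken over from Hi-C that the laboratory had published before, outside the samples of the series. Comparing a map with shA1 to one without it therefore also compares data sets. With 1 map per condition the spread between replicates is unknown, and no test was made. Contact maps hold no RNA levels, so neither the loss of HMGA1 nor the silencing of any of these genes could be checked in them.

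Cell cycle genes are switched on in waves. E2F factors, held back by the retinoblastoma protein in resting cells, turn on the genes for DNA synthesis at the start of S phase, and FOXM1 and MYBL2 turn on the genes for mitosis later. In senescence p53 and the retinoblastoma protein keep both waves off, and in RAS-induced senescence of fibroblasts much of the inactive chromatin gathers into dense foci. At the scale of these maps chromatin separates into an active A compartment, rich in genes, and an inactive B compartment, and bins tend to touch bins of their own kind.

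The cyclins, cyclin-dependent kinases and their activating phosphatases were CCNA2, CCNB1, CCNB2, CCNE1, CCNE2, CCND1, CDK1, CDK2, CDK4, CDK6, CDC25A and CDC25C. Genes of replication licensing and firing were CDC6, CDC45, CDT1, MCM2, MCM3, MCM4, MCM5, MCM6, MCM7, ORC1 and ORC6. PCNA, RFC3, RRM1, RRM2 and TYMS make DNA or its building blocks. TOP2A, MKI67, BUB1, BUB1B, MAD2L1, PLK1, AURKA, AURKB, CENPA, CENPE, CENPF, BIRC5 and CDC20 serve mitosis and the kinetochore. E2F1, E2F2, E2F3, FOXM1, MYBL2 and EZH2 control transcription and chromatin.

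A bin is bounded by HindIII sites, and 14406 of the 14420 inner bin edges lay at one in GRCh37, the assembly of the files. The bin of CCNA2, cyclin A2 of S phase and mitosis, spans chr4:122599969-122803005. Its first edge is given with the HindIII site in capitals, plus strand, because the edges decide which reads a gene's values come from.
Start of the CCNA2 bin, chr4:122599954-122599983: acacaatcaatcatAAGCTTaaactctgtt

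Some short motifs were more frequent in the promoters of the 47 genes than in all promoters, though not every gene had them. The choice of bins did not use sequence, but the genes were chosen as cell cycle genes. In the 250 bases before the start of transcription, the CCAAT box (letters CCAAT, either strand) was found in 34 of the 47 genes and in 34.2% of 19881 promoters of protein-coding genes. The core of the cell cycle genes homology region (CHR, letters TTTGAA, either strand) was found in 12 of the 47 and in 10.1% of all promoters. An E2F site, spelled as TTCCCGC, or as TTGGCGC, or as TTCGCGC, or else as TTGCCGC, on either strand, was found in 20 of the 47 and in 14.4% of all. A match is a run of letters and not a measured binding site. The promoters of CCNA2 and MKI67 are printed because CCNA2 had the largest rise of local contact and the bin of MKI67, the gene of the proliferation marker Ki-67, is a B bin whose distal contact with B fell. Capitals mark CCAAT on either strand (ATTGG on the strand shown) and TTTGAA. Both genes are on the minus strand, the sequence is written 5′ to 3′ on that strand, and the coordinates are those of GRCh37.
CCNA2, chr4:122745039-122745288: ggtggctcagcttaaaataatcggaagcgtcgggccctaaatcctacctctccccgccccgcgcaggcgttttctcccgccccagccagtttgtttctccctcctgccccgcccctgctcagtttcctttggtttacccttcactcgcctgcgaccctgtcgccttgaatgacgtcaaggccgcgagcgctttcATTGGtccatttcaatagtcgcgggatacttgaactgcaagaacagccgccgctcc
MKI67, chr10:129924688-129924937: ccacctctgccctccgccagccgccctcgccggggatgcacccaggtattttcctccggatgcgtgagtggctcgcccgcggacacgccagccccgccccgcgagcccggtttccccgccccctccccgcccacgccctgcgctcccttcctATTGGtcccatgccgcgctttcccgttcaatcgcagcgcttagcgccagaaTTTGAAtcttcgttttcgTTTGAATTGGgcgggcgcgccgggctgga
The CCNA2 window held 1 CCAAT and no TTTGAA, and the MKI67 window held 2 of each, with 1 pair overlapping in TTTGAATTGG. Other spellings of the CHR core were not searched, so a window without TTTGAA may still hold a CHR.

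The files give 1 score per listed pair of bins of the same chromosome, which the authors corrected for distance, so that 0 is near the usual contact at that distance. Its log base is not stated, and differences are given in score units and not as folds. Pairs over 2 Mb apart are called distal and the others local. The share of possible distal pairs that a map lists was its measure of depth: 89.0% in Grow, 83.6% in Grow-shA1, 79.6% in OIS and 77.7% in OIS-shA1. The bins of 6 genes had under 50% of their pairs listed in at least 1 map and were kept apart: CCND1, CDC25A, CDT1, RRM2, CDC20 and E2F2. These bins had a median GC content of 49.9% and 33 HindIII sites, against 39.8% and 59 in all kept bins. The other 41 genes lay in 40 of the 12825 kept bins, with a median GC content of 43.5%, 51 HindIII sites and 3 protein-coding starts, against 1 start in all kept bins. The part of this richness in genes and GC in any value below was not tested.

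Most cell cycle bins lay in the A compartment and stayed there. The compartment score is the loading of a bin on the main axis of its chromosome's contact pattern, positive for A. In Grow 31 of the 40 bins were A, where 42.4% of all kept bins were. The count was 32 in Grow-shA1 (42.2% of all kept bins), 34 in OIS (50.6% of all) and 34 in OIS-shA1 (49.1% of all). The bins of CCNE1, CDK1, MCM3, MCM5, MCM6, MKI67, PLK1, AURKA and CENPE were B in Grow. From Grow to OIS 3 bins changed sign, all from B to A, and 9.58% of all kept bins changed sign. Most members were A and could not change in this direction. Of the 9 members that were B in Grow 3 became A, beside 1140 of the 7383 B bins of Grow, and 9 bins are few. No member went from A to B.

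CDK1, the kinase that drives entry into mitosis, had a compartment score of -0.204 in Grow, -0.357 in Grow-shA1, 0.226 in OIS and 0.250 in OIS-shA1. It was B in both growing maps and A in both senescent maps. MCM6, a subunit of the replicative helicase, did the same, with -0.384, -0.117, 0.0964 and 0.0394 in that order. PLK1, a mitotic kinase, lay at the border, with -0.0120 in Grow and 0.0347, 0.0568 and 0.0317 in the other maps, so its change of sign was small. With the component taken per chromosome arm, 32 members were A in Grow (41.2% of all) and 2 changed sign (9.73% of all). With shA1, RAS turned the sign of CDK1 and MCM6 (2 of 40, against 8.52% of all). No member changed sign from OIS to OIS-shA1 (4.51% of all), and from Grow to Grow-shA1 PLK1 was the only one (2.78% of all).

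The other B bins kept their sign in the 4 maps. MKI67 scored -0.593 in Grow, -0.686 in Grow-shA1, -0.174 in OIS and -0.465 in OIS-shA1. MCM3 scored -0.600, -0.658, -0.203 and -0.455 in the same order, so both were closest to the border in OIS. CCNE1, cyclin E1 of the start of S phase, ranged from -0.866 to -0.706, AURKA from -1.03 to -0.826, MCM5 from -0.395 to -0.215 and CENPE from -0.761 to -0.327. E2F1, the founding E2F factor, was A in each map at 1.13, 1.03, 0.819 and 0.744, and CCNA2 was A at 1.25, 1.36, 1.18 and 1.31.

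**Figure D1:**
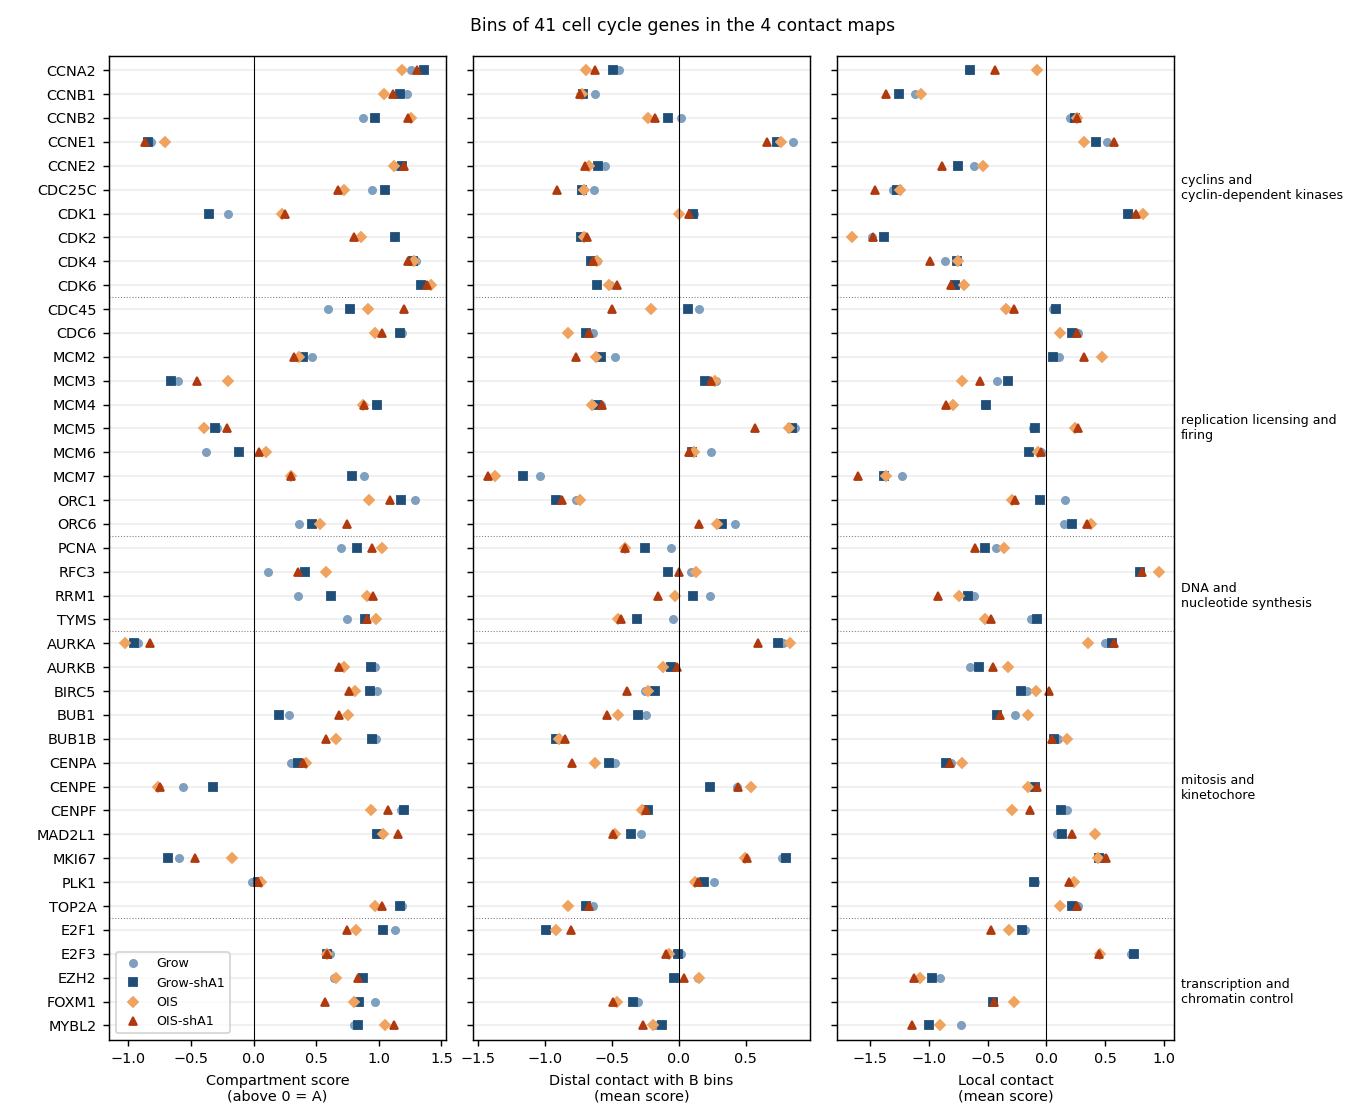
Values of the bins of 41 cell cycle genes in the 4 maps, in rows by role: compartment score (left, above 0 is A), mean score of distal pairs with B bins (middle) and mean score of local pairs (right), each point 1 map and CDC6 and TOP2A sharing a bin. CDK1 and MCM6 cross 0 between growing and senescent maps, and CCNA2 stands at -0.0814 in local contact in OIS and at -0.657 in Grow.

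Distal contact with B bins asks how far a gene's neighbourhood mixes with inactive chromatin. A difference past 0.1 in either direction was called a rise or a fall. From Grow to OIS the contact of cell cycle bins with distant B fell in 19 of 40 bins, where 48.5% of all kept autosomal bins fell, and rose in 1, where 13.9% of all rose. The median difference was -0.0931 in members and -0.0934 in all kept bins, with an SD over all bins of 0.185. The members' share of falls was thus that of the genome. After the median of all kept bins was taken off, 9 members fell (29.1% of all kept bins) and 6 rose (29.0% of all). With a limit of 0.2 in place of 0.1, 9 members passed either way (32.8% of all). The sign of the median depended on pairs that a map does not list: with these counted as 0 it was 0.0172. The SD over the pairs of 1 bin was large, for instance 0.573 for MKI67 over 259 pairs.

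The genes of DNA and nucleotide synthesis had the lowest median of the 5 roles, -0.302, with falls in 3 of 4 bins beside 48.5% of all kept bins. TYMS, which makes thymidylate, scored -0.0436 in Grow, -0.315 in Grow-shA1, -0.457 in OIS and -0.432 in OIS-shA1. Its fall with RAS was -0.414 (SD 0.573 over 134 pairs), the largest of all members, at percentile 7.47 of chromosome 18. PCNA, the sliding clamp of the replication fork, scored -0.0552, -0.250, -0.400 and -0.401, a fall of -0.345 at percentile 8.70 of chromosome 20.
In both genes Grow stood above the other 3 maps. RRM1, the large subunit of ribonucleotide reductase, scored 0.233, 0.107, -0.0259 and -0.155, a fall of -0.259. RFC3, a subunit of the clamp loader, scored 0.0905, -0.0802, 0.131 and -0.000776, a difference of 0.0405 that passed no limit.

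Replication licensing and firing had falls in 6 of 10 bins, near the 48.5% of all kept bins. CDC45, which completes the helicase at the origin, scored 0.149 in Grow, 0.0673 in Grow-shA1, -0.206 in OIS and -0.500 in OIS-shA1. Its fall was -0.356 (SD 0.689 over 50 pairs), at percentile 20.2 of chromosome 22, and both senescent maps lay below both growing ones. MCM7, another helicase subunit, scored -1.03, -1.16, -1.37 and -1.42, a fall of -0.338 at percentile 7.24 of chromosome 7. The bin of MCM7 holds 14 protein-coding starts, so its values belong to a gene-dense neighbourhood and not to MCM7 alone. The bins of CDC6 with TOP2A, MCM2, MCM6 and ORC6 fell by 0.129 to 0.183. MCM3, MCM4, MCM5 and ORC1 passed no limit, with ORC1 at 0.0289 (scores -0.765, -0.914, -0.736 and -0.875).

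Mitosis and kinetochore genes fell in 6 of 12 bins, the shared bin of CDC6 and TOP2A among them, and rose in 1, near the 48.5% and 13.9% of all kept bins. MKI67 scored 0.767 in Grow, 0.801 in Grow-shA1, 0.491 in OIS and 0.508 in OIS-shA1. Its fall of -0.276 was at percentile 13.2 of chromosome 10, and both senescent maps lay below both growing maps. BUB1, a checkpoint kinase, fell by 0.214, MAD2L1, its checkpoint partner, by 0.191, and CENPA, the histone of centromeres, by 0.148. CENPE, a kinetochore motor and a B bin, was the single rise, at 0.102, with scores of 0.434, 0.232, 0.536 and 0.441, and stood at percentile 62.2 of chromosome 4. AURKA, a spindle pole kinase, scored 0.778, 0.738, 0.825 and 0.592, a difference of 0.0475. BIRC5, the survivin of the chromosomal passenger complex, scored -0.250, -0.180, -0.228 and -0.383, a difference of 0.0225.

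Cyclins and their kinases fell in 4 of 10 bins and rose in none, beside 48.5% and 13.9% of all kept bins. CCNA2 scored -0.449 in Grow, -0.488 in Grow-shA1, -0.690 in OIS and -0.626 in OIS-shA1, a fall of -0.241. CDK1 scored 0.110, 0.106, 0.00175 and 0.0773, a fall of -0.108 that lies just past the limit. CCNB2 fell by 0.243 and CCNE2 by 0.123. The bins of CCNB1 (-0.0935) and CCNE1 (-0.0926) lay just inside the limit, and those of CDK2 (0.00567), CDK4 (-0.00143) and CDK6 (-0.000918), the G1 kinases, near 0. Among transcription and chromatin genes FOXM1 alone fell, by 0.156. E2F1 scored -0.986, -0.992, -0.918 and -0.807, a difference of 0.0684 at percentile 91.3 of chromosome 20.

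With shA1 the same RAS contrast gave falls in 18 of 40 member bins (43.3% of all kept bins) and rises in 3 (17.6% of all). Of the 31 members in A bins 15 fell (39.3% of all A bins) and 2 rose (20.6% of all A bins). Of the 9 members in B bins 3 fell (46.3% of all B bins) and 1 rose (15.3% of all B bins). The median was -0.0926 in members and -0.0702 in all kept bins. These 2 RAS comparisons share no map. CDC45 fell by 0.567 at percentile 2.38 of its chromosome, MKI67 by 0.292 and RRM1 by 0.261. CENPE (0.209), E2F1 (0.185) and CDK6 (0.149) were the rises. TYMS fell by 0.117 with shA1, and the difference from its fall without shA1 was not tested. Centring on all kept bins gave 10 falls (29.2% of all) and 11 rises (29.0% of all), and a limit of 0.2 was passed by 9 members (31.4% of all).

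HMGA1 depletion in senescent cells was read from OIS-shA1 minus OIS, which shares the OIS map with OIS minus Grow and sets 1 data set against another. Distal contact with B fell in 13 member bins (34.9% of all kept bins) and rose in 3 (13.2% of all). Of the 31 members in A bins 10 fell (19.7% of all A bins) and 3 rose (21.2% of all A bins), with a median of -0.0268. Of the 9 members in B bins 3 fell (46.2% of all B bins) and none rose (7.3% of all B bins). These differences between members and their compartments were not tested. The median was -0.0302 in members, -0.0512 in all kept bins and 0.00176 in A bins. Centred on all kept bins, 6 members fell (20.4% of all) and 8 rose (22.7% of all), and a limit of 0.2 was passed by 4 (13.2% of all). The largest falls were CDC45 (-0.293, percentile 4.17), MCM5 (-0.253, percentile 7.14) and AURKA (-0.233, percentile 7.36). MCM5 scored 0.863, 0.841, 0.818 and 0.565, and in it and AURKA OIS-shA1 stood below the other 3 maps. The rises were the CDC6 and TOP2A bin (0.157), E2F1 (0.110) and AURKB (0.109). The CDC6 and TOP2A bin scored -0.643 in Grow, -0.693 in Grow-shA1, -0.826 in OIS and -0.669 in OIS-shA1, so OIS alone was low. AURKB, the kinase of the passenger complex, scored -0.0830, -0.0570, -0.120 and -0.0116.

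In growing cells, Grow-shA1 minus Grow gave falls in 11 member bins (35.4% of all kept bins) and no rise (3.5% of all). The median was -0.0656 in members and -0.0707 in all kept bins. Centred on all kept bins, 4 members fell (9.51% of all) and 3 rose (12.1% of all), and a limit of 0.2 was passed by 2 (5.37% of all). Each of the 4 DNA and nucleotide synthesis bins fell: TYMS (-0.272), PCNA (-0.195), RFC3 (-0.171) and RRM1 (-0.126). TYMS stood at percentile 1.87 of chromosome 18 and PCNA at percentile 4.01 of chromosome 20. A role of 4 bins is small, and the effect of shA1 and that of the data set cannot be told apart here. Distal contact with A bins differed less, with member medians of 0.0141 in OIS minus Grow, -0.00450 with shA1, 0.00960 in OIS-shA1 minus OIS and -0.00277 in Grow-shA1 minus Grow. In all kept bins these were -0.0442, -0.0271, 0.00196 and -0.0350. In A bins the RAS medians were 0.0175 and 0.0312.

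**Figure D2:**
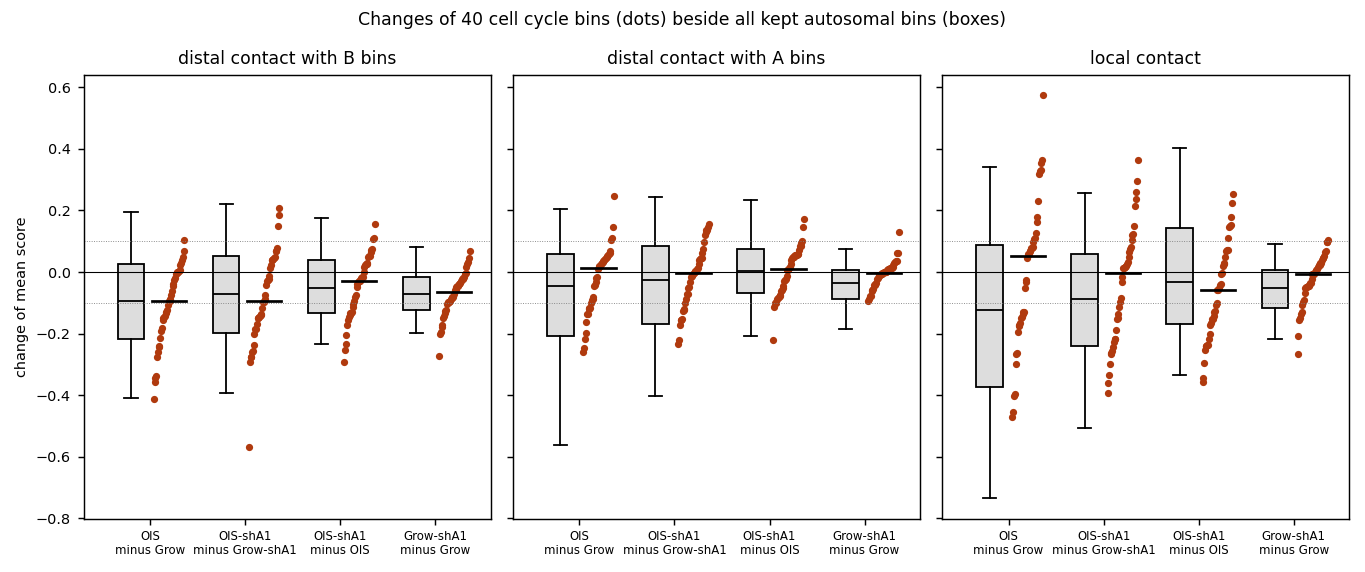
Differences of mean score in the 4 comparisons for distal contact with B bins, distal contact with A bins and local contact. Dots are the 40 cell cycle bins in order of size with their median as a bar, boxes are all kept autosomal bins (quartiles, whiskers from the 5th to the 95th percentile), and dotted lines mark the limit of 0.1. The member medians of distal contact with B lie close to those of all bins, and the highest dot of local contact is CCNA2 at 0.576.

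Local contact, within 2 Mb, describes how compact the surroundings of a gene are. From Grow to OIS it rose in 12 of 40 member bins (23.4% of all kept bins) and fell in 16 (52.7% of all). The median was 0.0514 in members, -0.122 in all kept bins and -0.0278 in A bins, and most members were A bins. After the median of all kept bins was taken off, 21 members rose (37.8% of all kept bins) and 7 fell (39.2% of all). These centred shares were not counted for A bins alone. Counting pairs up to 1 Mb alone brought the members' median to -0.000961. By role, local contact rose in 3 and fell in 2 of 10 bins of cyclins and kinases. For mitosis and kinetochore genes it rose in 4 and fell in 3 of 12 bins. Replication licensing had 3 rises and 6 falls in 10 bins, and DNA and nucleotide synthesis 1 rise and 2 falls in 4. Transcription and chromatin genes had 1 rise and 4 falls in 5 bins. All kept bins rose in 23.4% and fell in 52.7%, A bins rose in 30.9% and fell in 39.2%, and the roles are small.

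CCNA2 had the largest rise. Its local score was -0.657 in Grow, -0.654 in Grow-shA1, -0.0814 in OIS and -0.439 in OIS-shA1. The 2 growing maps differed by 0.00363, and both senescent maps lay above them. The rise with RAS was 0.576 (SD 0.277 over 19 pairs), at percentile 98.2 of chromosome 4. With shA1 it was 0.215 at percentile 94.7, and OIS-shA1 lay 0.358 below OIS, at percentile 9.02. Contact was higher in OIS than in Grow with 20 of the 20 bins around CCNA2, from 0.191 at the least to 1.10 at a B bin at -1.20 Mb. The mean rise was 0.695 with the 8 B bins among its 19 kept partners and 0.489 with the 11 A bins. CCNA2 had 0 partners in the 1% of distal pairs of chromosome 4 with the largest rise in OIS, where the median bin had 3.

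MAD2L1 lies 1757040 bases from CCNA2 on the same chromosome, and its local score was 0.0868 in Grow, 0.132 in Grow-shA1, 0.415 in OIS and 0.214 in OIS-shA1. Its rise was 0.328 at percentile 89.1 without shA1, and the difference with shA1 was 0.0820. The 8 bins between the 2 genes hold 4 protein-coding starts and were all B in Grow, and 4 of them were B in OIS. Over the 45 pairs within the stretch from MAD2L1 to CCNA2 the mean score was 0.0847 in Grow, 0.115 in Grow-shA1, 0.568 in OIS and 0.370 in OIS-shA1. In OIS 40 of the 45 pairs were higher than in Grow, with a mean of 0.484 (SD 0.357 over pairs), and with shA1 33 were higher, with a mean of 0.255. Among 861 stretches of as many bins on chromosome 4 the 2 values stood at percentiles 97.0 and 98.3. The stretch ends at CCNA2, the bin with the largest local rise, and holds some of the same pairs. A high percentile in OIS minus Grow was thus partly set by this choice. In OIS-shA1 minus OIS the mean was -0.198, at percentile 29.5, and 6 of the 45 pairs were higher. The pair of the 2 genes' own bins scored 0.0250 in Grow, 0.128 in Grow-shA1, 0.408 in OIS and 0.550 in OIS-shA1, so this single pair was highest in OIS-shA1 while the stretch as a whole was highest in OIS. The 2 bins share this stretch and are not independent observations.

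**Figure D3:**
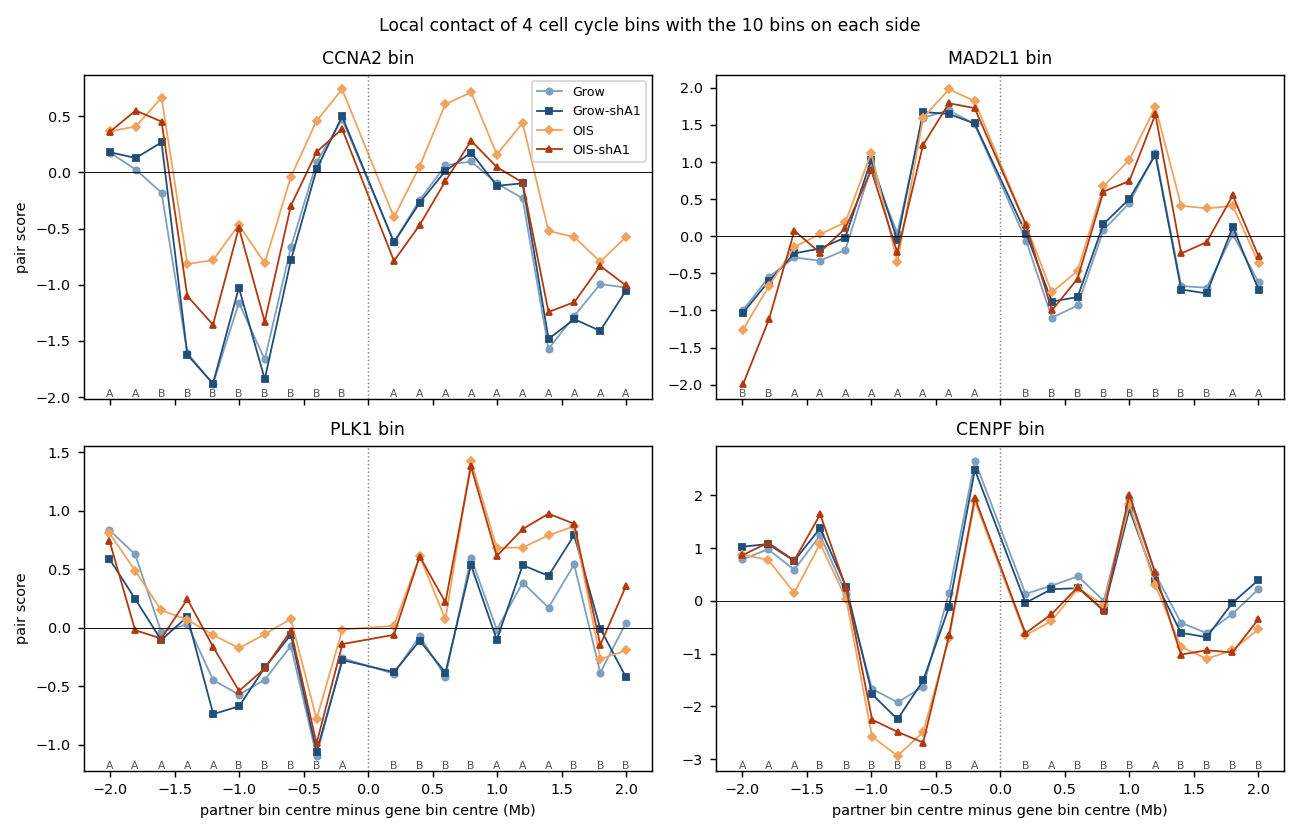
Pair scores of the CCNA2, MAD2L1, PLK1 and CENPF bins with the 10 bins on each side, by distance between bin centres in Mb, in the 4 maps, with the Grow compartment of each partner as a letter at the foot. OIS lies above Grow at 20 of 20 partners of CCNA2 and at 17 of 20 of PLK1, and below Grow at 19 of 20 partners of CENPF.

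The next largest rises were in MCM2, MCM5 and PLK1. MCM2, another helicase subunit, scored 0.106 in Grow, 0.0572 in Grow-shA1, 0.471 in OIS and 0.318 in OIS-shA1, a rise of 0.365 at percentile 94.4 of chromosome 3. MCM5 scored -0.116, -0.0992, 0.238 and 0.264, a rise of 0.355 at percentile 98.8 of chromosome 22. PLK1 scored -0.0997, -0.106, 0.230 and 0.189, a rise of 0.330 at percentile 98.2 of chromosome 16.
In these 3 bins both senescent maps lay above both growing maps, and RAS with shA1 gave rises of 0.261, 0.363 and 0.295. Their differences of OIS-shA1 from OIS were -0.153, 0.0257 and -0.0412, so MCM2 alone of the 3 fell past the limit. AURKB rose by 0.318 at percentile 97.9 of chromosome 17 and by 0.119 with shA1.

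The largest falls of local contact were in CENPF, ORC1, CDC45 and TYMS. CENPF, a large kinetochore protein, scored 0.179 in Grow, 0.126 in Grow-shA1, -0.291 in OIS and -0.141 in OIS-shA1, a fall of -0.469. ORC1, of the origin recognition complex, scored 0.158, -0.0511, -0.296 and -0.267, a fall of -0.454. On chromosome 1 these stood at percentiles 26.2 and 28.1, so falls of this size were common on that chromosome.
CDC45 scored 0.0558, 0.0796, -0.348 and -0.279, a fall of -0.404 at percentile 11.3 of chromosome 22. TYMS scored -0.129, -0.0842, -0.526 and -0.476, a fall of -0.397 at percentile 18.1 of chromosome 18. In the 4 genes both senescent maps lay below both growing maps. TYMS differed between partners, with a mean of -0.677 over 8 B bins and 0.163 over 4 A bins.

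Local contact of MKI67 was 0.487 in Grow, 0.444 in Grow-shA1, 0.435 in OIS and 0.507 in OIS-shA1, all within 0.0718 of each other. CDK1 scored 0.698, 0.691, 0.824 and 0.764, a rise of 0.125 without shA1. E2F1 scored -0.183, -0.206, -0.319 and -0.471, a fall of -0.136 without and of -0.264 with shA1.

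With shA1 the RAS contrast gave local rises in 9 member bins (19.2% of all kept bins) and falls in 16 (47.8% of all), with a median of -0.00157 in members and -0.0889 in all kept bins. In OIS-shA1 minus OIS local contact fell in 19 members (37.7% of all) and rose in 7 (30.4% of all), with a median of -0.0588. Centred on all kept bins, local contact in the RAS contrast with shA1 rose in 20 members (32.4% of all) and fell in 11 (32.7% of all). Centred values of OIS-shA1 minus OIS rose in 10 members (34.3% of all) and fell in 15 (31.8% of all). Of the 31 members in A bins 19 fell (53.8% of all A bins) and 4 rose (11.2% of all A bins), with a median of -0.130 beside -0.116 in all A bins. Of the 9 members in B bins none fell (25.8% of all B bins) and 3 rose (44.5% of all B bins), with a median of 0.0716 beside 0.0616 in all B bins. The medians of the members were thus near those of their compartments, and 9 bins are few for the shares. In Grow-shA1 minus Grow local contact fell in 7 members (30.2% of all) and rose in 1 (4.13% of all), CDK2 at 0.103, and centred on all kept bins 3 fell (14.5% of all) and 6 rose (12.4% of all).

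**Figure D4:**
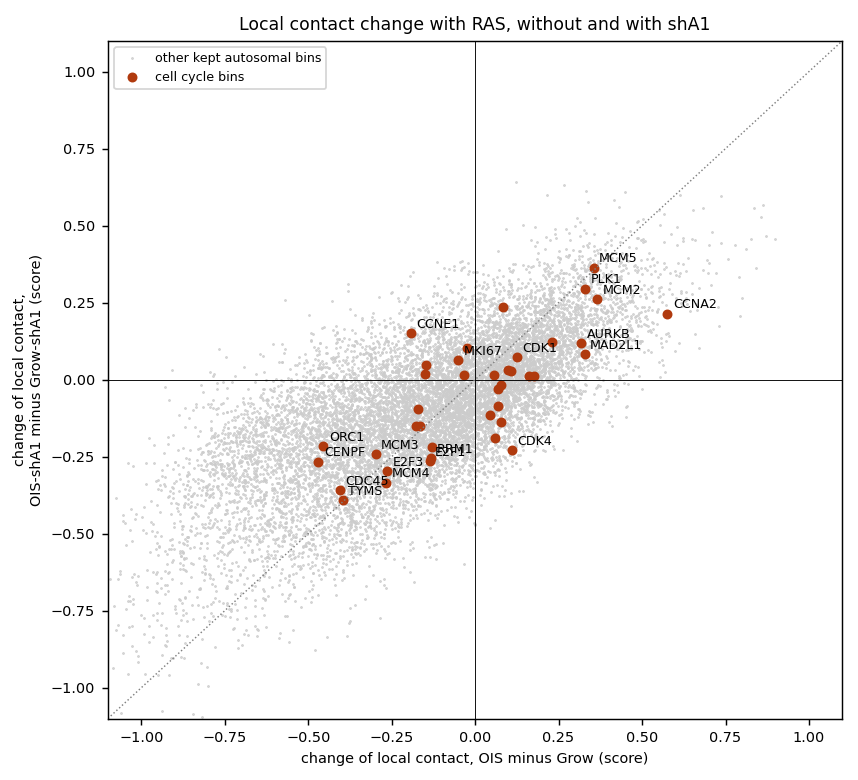
RAS difference of local contact without shA1 (horizontal, OIS minus Grow) and with shA1 (vertical, OIS-shA1 minus Grow-shA1), in score units, for the cell cycle bins (red) and the other kept autosomal bins (grey, 41 outside the axes); the dotted line marks equal differences. CCNA2 lies at 0.576 and 0.215, below the line, MCM5 at 0.355 and 0.363 on it, and CDK4 and CCNE1 have opposite signs.

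Contact between member bins was read from the 21 distal pairs of cell cycle bins that all 4 maps list, of 27 such pairs. In OIS 16 of the 21 scored below Grow, with a median of -0.354, and with shA1 14 were lower, with a median of -0.314. Over 605191 distal pairs of A bins on the same chromosomes the medians were 0.0276 and 0.0348, with SDs of 0.578 and 0.603, and 48.1% and 47.3% were lower. Many of the 21 include a bin that was B in Grow, namely the pairs of MKI67, PLK1, MCM6, MCM5, MCM3, AURKA and CENPE. Pairs of A bins are not a like background for these, and other distal pairs with a B bin were not summarised. A single pair is 1 score of unknown read depth, and pairs that share a gene are not independent, so this is a description of few values. The medians of OIS-shA1 minus OIS and Grow-shA1 minus Grow were 0.107 and -0.149.

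In 10 of the 21 pairs both growing maps lay above both senescent maps, and in 2 both lay below. How often other distal pairs show either order was not counted, so these counts have no background. CENPA with BUB1, both on chromosome 2 and 84.4 Mb apart, scored 1.17 in Grow, 0.931 in Grow-shA1, -0.0921 in OIS and 0.289 in OIS-shA1. MCM7 with EZH2, the Polycomb methyltransferase, scored 1.01, 0.269, -0.236 and -0.306. CDC45 with MCM5 scored 0.870, 0.902, -0.295 and 0.358.
These 3 pairs had the largest falls and were among the 10. PCNA with AURKA scored 0.244, 0.0943, -0.581 and 0.137, so OIS alone was low. The largest rises were smaller: CDK6 with EZH2 scored 0.507, 0.183, 0.859 and 1.07, and MCM4 with CCNE2 scored 0.459, 0.657, 0.682 and 0.849. CENPE with MAD2L1 (0.191) and FOXM1 with CDK2 (0.176) followed, and with shA1 both were lower in the senescent map (-0.314 and -0.855).

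**Figure D5:**
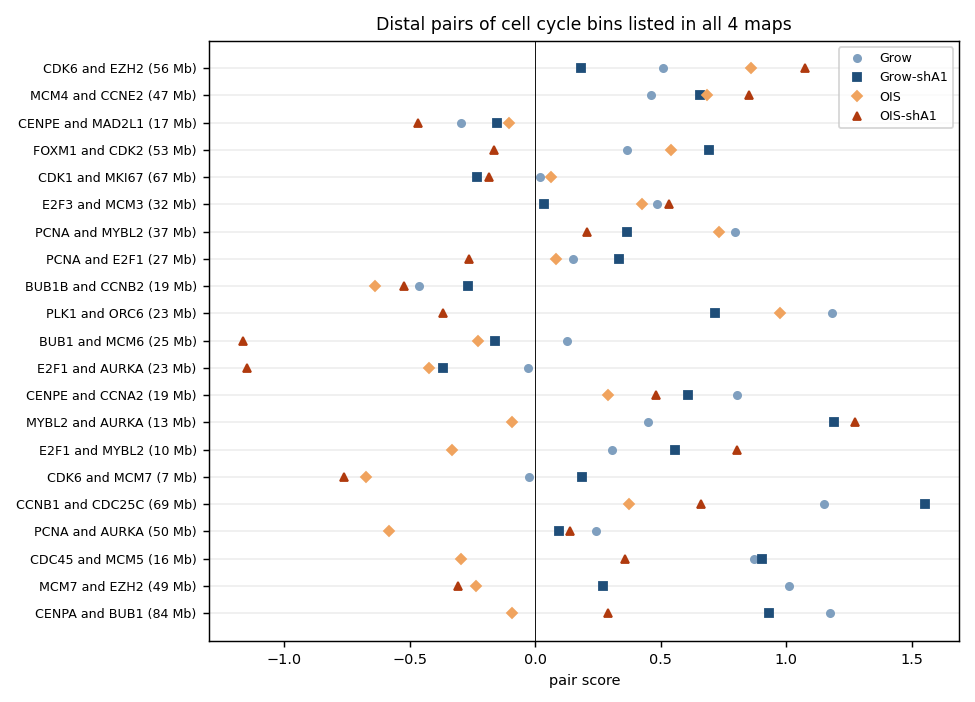
Scores of the 21 distal pairs of cell cycle bins listed in all 4 maps, ordered by OIS minus Grow from the largest fall (bottom) to the largest rise (top), with the distance in Mb. In 10 rows, the 3 lowest among them, both growing maps stand to the right of both senescent maps, and in 2 rows both stand to the left. This order was not counted over other pairs.

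The partners in the 1% of distal pairs with the largest rise in each chromosome were counted next. In OIS minus Grow 17 of 40 member bins had more such partners than the median bin of their chromosome, against 44.0% of all kept bins, and for the largest falls 11 of 40 against 43.2%. CDK1 had 8 partners that rose and 4 that fell, beside a median of 3 for both. MKI67 had 2 that rose and 8 that fell. With shA1 14 of 40 member bins were over the median for rises (43.6% of all) and 11 for falls (44.3% of all). There CDK1 had 7 partners that rose and 4 that fell, and MKI67 had 1 that rose and 2 that fell, so its count of falls over the median was seen without shA1.

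The 6 genes kept apart had few distal pairs with B listed in all maps, from 3 for CDT1 to 61 for CDC25A, and those values are not read. Local values rest on 16 to 19 pairs each. CCND1, cyclin D1, scored 0.551 in Grow, 0.573 in Grow-shA1, 0.743 in OIS and 0.715 in OIS-shA1 in local contact, a rise of 0.193, and 0.142 with shA1. CDT1, a licensing factor, fell by 0.155 without shA1, on 16 pairs. CDC25A (0.0535), RRM2 (0.0363), E2F2 (-0.0233) and CDC20 (-0.0367) passed no limit. CDC25A fell by 0.231 from OIS to OIS-shA1.

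Other genes of the same pathways were taken from a list of 84, all found in the annotation, 1 of them through an older symbol. Their 75 kept bins without a member gave distal contact with B in OIS minus Grow that fell in 37 (48.5% of all kept bins) and rose in 6 (13.9% of all), with a median of -0.0872. Local contact rose in 22 (23.4% of all kept bins) and fell in 29 (52.7% of all), with a median of -0.0488, between the 0.0514 of the 40 member bins and the -0.122 of all kept bins. Of these 75 bins 53 were A in Grow, and the median of all A bins was -0.0278, above theirs. Of all A bins 30.9% rose and 39.2% fell. The largest distal falls were MCM8 (-0.657), CENPN (-0.537) and GINS3 (-0.521), and the largest rises UBE2T (0.400), TPX2 (0.310) and DNMT1 (0.212). Local contact rose most in CENPU (0.561), RFC4 (0.486) and KIF23 (0.408), and fell most in GINS3 (-0.547), FEN1 (-0.506) and ORC4 (-0.493). Distal contact thus spanned a wider range than in the members, whose values ran from -0.414 to 0.102.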

How the data were processed

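Per the study's methods, the authors mapped the Hi-C reads to hg19 with HiC-Pro, dropped artefacts and duplicate reads, and counted the rest in bins of about 200 kb. ICE normalisation and a correction for distance followed (diffHic). The deposited value of a pair of bins is this corrected score, of unstated log base, and read counts per pair are not used here. Bins with under 50% of their chromosome's pairs listed in any map were left out. Compartment scores came from the first principal component of each chromosome in each map, with unlisted pairs set to 0, oriented by protein-coding starts. Partner bins, and the sets of A and B bins, were labelled by their sign in Grow. Starts were those of Ensembl canonical transcripts in GENCODE, lifted to GRCh37. Means were taken over pairs listed in all 4 maps, without the pair of a bin with itself. A difference past 0.1 was called, in place of a test. The functions were tested on simulated data (Python 3.11.15, numpy 2.4.6, pandas 2.3.3, matplotlib 3.10.9). The labels gave 2 Grow-shA1 and 2 OIS-shA1 samples. All 47 genes were listed, with full values for CCNA2, CDK1, MKI67, E2F1, the bins in B, those that changed compartment, the 6 largest distal and 4 largest local differences each way, the 3 largest each way in OIS-shA1 minus OIS, and the 4 largest each way among pairs. Other genes with values were chosen after these were seen. Members, lists and limits were chosen with earlier results of these data known. Alternatives changed the pairs compared, unlisted pairs, scale, centring, distance limits, neighbouring bins, unit, compartments and size limit. The sequence at the other edge of the CCNA2 bin is not reported here.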

Additional observations from a re-analysis of the deposited data

Results flagged for a closer look

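Local contact of 2 genes moved in opposite directions with RAS without and with shA1, past the limit of 0.1 both ways. CDK4 rose by 0.110 without shA1 and fell by 0.229 with it, so that the second difference minus the first was -0.339. CCNE1 fell by 0.193 without shA1 and rose by 0.150 with it, so that the second minus the first was 0.343. The share of all kept bins that meet the same rule was not counted, so how unusual these 2 genes are is unknown. With 1 map per condition neither difference was tested, and no cause was tested.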

How the results depend on the processing

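Of the recomputed values, 56 kept their sign and stayed within 1.5 times of the reported value, 36 moved further and 26 changed sign, most of them medians close to 0. The counts of bins in A and of bins that changed compartment kept within 1.5 times with a component per arm, and the medians of contact between member bins did under both of their alternatives. Over the pairs each map listed on its own, the median difference of distal contact with B was -0.047 in OIS minus Grow, -0.0299 in OIS-shA1 minus Grow-shA1, -0.00701 in OIS-shA1 minus OIS and -0.0381 in Grow-shA1 minus Grow, distal contact with A -0.000498 in OIS minus Grow, 0.00429 in OIS-shA1 minus Grow-shA1 and 0.00752 in Grow-shA1 minus Grow. With unlisted pairs counted as 0, the median difference of distal contact with B was 0.0172 in OIS minus Grow, 0.0133 in OIS-shA1 minus Grow-shA1, 0.0127 in OIS-shA1 minus OIS and -0.000416 in Grow-shA1 minus Grow, distal contact with A -0.00475 in OIS minus Grow, -0.00227 in OIS-shA1 minus Grow-shA1, -0.00146 in OIS-shA1 minus OIS and 0.00572 in Grow-shA1 minus Grow. After each map's scores were divided by their own SD at that distance, the median difference of distal contact with B was -0.0604 in OIS minus Grow and -0.0576 in OIS-shA1 minus OIS, distal contact with A -0.0784 in OIS minus Grow, -0.0366 in OIS-shA1 minus Grow-shA1, 0.0197 in OIS-shA1 minus OIS and 0.000654 in Grow-shA1 minus Grow, local contact 0.034 in OIS minus Grow, 0.0066 in OIS-shA1 minus Grow-shA1 and -0.00414 in Grow-shA1 minus Grow. After subtraction of the median of all kept autosomal bins, the median difference of distal contact with B was 0.000345 in OIS minus Grow, -0.0224 in OIS-shA1 minus Grow-shA1, 0.0211 in OIS-shA1 minus OIS and 0.00505 in Grow-shA1 minus Grow, distal contact with A 0.0583 in OIS minus Grow, 0.0226 in OIS-shA1 minus Grow-shA1 and 0.0322 in Grow-shA1 minus Grow, local contact 0.173 in OIS minus Grow, 0.0873 in OIS-shA1 minus Grow-shA1, -0.0271 in OIS-shA1 minus OIS and 0.0456 in Grow-shA1 minus Grow. With distal pairs from 5 Mb and local pairs up to 1 Mb, the median difference of distal contact with A was 0.00321 in OIS minus Grow, -0.0105 in OIS-shA1 minus Grow-shA1 and -0.00446 in Grow-shA1 minus Grow, local contact -0.000961 in OIS minus Grow, -0.0259 in OIS-shA1 minus Grow-shA1 and -0.0129 in Grow-shA1 minus Grow. Over each bin and its neighbour on either side, the median difference of distal contact with A was -0.00615 in OIS minus Grow, -0.000143 in OIS-shA1 minus Grow-shA1 and -0.0181 in Grow-shA1 minus Grow, local contact -0.000517 in OIS minus Grow and -0.0175 in Grow-shA1 minus Grow. Over genes in place of bins, the median difference of distal contact with A was 0.00882 in OIS minus Grow, -0.00175 in OIS-shA1 minus Grow-shA1 and -0.00154 in Grow-shA1 minus Grow, local contact 0.0127 in OIS-shA1 minus Grow-shA1. With compartments from Grow-shA1, the median difference of distal contact with A was -0.00864 in OIS minus Grow and -5.18e-05 in Grow-shA1 minus Grow. Over every bin with any listed pair, a setting added after seeing the data, the median difference of distal contact with B was -0.0541 in OIS-shA1 minus Grow-shA1, distal contact with A -0.0107 in OIS-shA1 minus Grow-shA1, -0.0046 in OIS-shA1 minus OIS and -0.000413 in Grow-shA1 minus Grow, local contact 0.00861 in OIS-shA1 minus Grow-shA1 and -0.0252 in Grow-shA1 minus Grow. With a size limit of 0.2 in place of 0.1, member bins past the limit for distal contact with B numbered 9 in place of 20 in OIS minus Grow (32.8% of all kept bins), 9 in place of 21 in OIS-shA1 minus Grow-shA1 (31.4%), 4 in place of 16 in OIS-shA1 minus OIS (13.2%) and 2 in place of 11 in Grow-shA1 minus Grow (5.37%). The cause of these moves was not tested. No paired analysis was possible because each map with shA1 pools both of its samples and the other 2 maps belong to no sample. No replicate could be left out for the same reason. Read depth per pair is unknown, and it limits what a single pair or one of the 6 bins with few listed pairs can show.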
